A study of Saccharomyces cerevisiae with 30 samples.

Results

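The genes described here are 10 heat shock and general stress genes of *Saccharomyces cerevisiae*, chosen by their systematic names: *HSP12* (YFL014W), *HSP26* (YBR072W), *HSP30* (YCR021C), *HSP42* (YDR171W), *HSP82* (YPL240C), *HSP104* (YLL026W), *SSA3* (YBL075C), *SSA4* (YER103W), *CTT1* (YGR088W) and *DDR2* (YOL052C-A). They are 10 of the 7126 genes counted in each of 18 RNA-seq libraries, and all 10 passed the filter on low counts. The libraries come from cells after 5 h in SPO media, a potassium acetate medium that induces meiosis and sporulation. Poly(A)+ mRNA was sequenced from the lysate before a sucrose gradient (total RNA) and from the pooled polysome fractions of that gradient (polysomal RNA), with 3 libraries per strain and fraction. Another 12 samples, from m6A-seq, were not analysed here.

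All strains were MATa/MATα diploids in the SK288C background, an S288C strain with alleles of the efficiently sporulating SK1 strain. Those used here had the SK1 alleles at *TAO3* and *MKT1* but not at *RME1*, and they carried *his3*, *leu2*, *lys2* and *ura3* mutations. WT cells were *IME4*/*IME4* and homozygous for *rme1-S288C*. In *ime4-cat* cells *IME4*, the gene of the mRNA m6A methyltransferase, carried amino acid substitutions that leave the protein without catalytic activity, again with *rme1-S288C*. In *rme1-10* cells *IME4* was intact and an A-to-T change removed a methylated adenosine from the 3′ untranslated region of *RME1*, the gene of a transcriptional repressor of meiosis. No unstressed or mitotic library is among the 18, so no level below is set against growing cells.

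Sets of libraries were named by the strain number and the fraction letter attached to each count table, which give the strain and whether RNA was polysomal or total. The GEO titles disagree with these names for 12 of the 18 libraries. Titles and table names agree only for the 3 WT and the 3 *ime4-cat* polysome libraries, so the polysomal comparison of these strains was fitted on those 6 alone. Under either naming the same libraries stand together in sets of 3, and only the names of the other 4 sets change: by the titles, the WT total set is *rme1-10* polysome, the *ime4-cat* total set is WT input, the *rme1-10* polysome set is *rme1-10* input and the *rme1-10* total set is *ime4-cat* input. Every comparison below other than the polysomal one of *ime4-cat* with WT therefore rests on the table names. *RME1* stood at 88.2 to 109 CPM (reads per gene, normalized for library depth and composition) in WT total RNA, 134 to 170 in *rme1-10* and 181 to 240 in *ime4-cat* total RNA by the table names, and at 74.3 to 90.0, 111 to 147 and 162 to 177 CPM in polysomal RNA. These ranges do not overlap within a fraction. Depth was 586141 to 6009889 counts on genes per library, and the 10 genes took 3.90% to 5.09% of them. The study describes its RNA-seq replicates as biological, while the labels do not say how they were grown, and p-values measure the spread between these libraries.

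Yeast answers heat and other stress through partly separate transcription factors. Hsf1 binds heat shock elements, made of inverted repeats of a short unit, and keeps chaperone genes active. Msn2 and Msn4 move into the nucleus when protein kinase A activity falls, bind the stress response element (STRE) and activate genes of trehalose and glycogen metabolism, oxidant defence and small heat shock proteins. Starvation for glucose and nitrogen, which also opens the way to sporulation, lowers protein kinase A activity. Among the genes here, *HSP82* encodes an Hsp90 chaperone and *SSA3* and *SSA4* encode stress-induced cytosolic Hsp70 chaperones. *HSP104* encodes the disaggregase that pulls proteins out of aggregates, *HSP26* and *HSP42* encode small heat shock proteins that hold unfolded proteins, and *HSP12* encodes a small hydrophilic protein that binds membranes. *HSP30* encodes a plasma membrane protein known as a negative regulator of the proton pump Pma1, *CTT1* encodes cytosolic catalase T, and *DDR2* was named for its induction by DNA damage.

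The upstream regions were searched for both kinds of element. The 500 bases before each start codon were read from the RefSeq R64 assembly, and 6019 genes had such a window. The STRE was searched as AGGGG on either strand, and 34% of all windows held it at least once and 8.12% at least 2 times. Of the 10 genes, 8 held it, each at least 2 times, with 5 matches before *HSP12*, 4 before *DDR2*, 3 each before *HSP26*, *HSP42*, *HSP104*, *SSA4* and *CTT1*, and 2 before *HSP82*. No match was found before *HSP30* or *SSA3*, whose nearest upstream neighbours lie 313 and 273 bases away. Of the 5 matches before *HSP12*, 3 lie inside the annotated neighbour YFL015C. A heat shock element of 3 units (GAANNTTCNNGAA or TTCNNGAANNTTC) occurred in 1.48% of windows and, of the 10 genes, only before *HSP42* and *HSP104*. A form of 2 units (GAANNTTC or TTCNNGAA), which the longer form contains, occurred in 35.1% of windows and before 7 of the 10. Those 7 were *HSP26*, *HSP42*, *HSP82*, *HSP104*, *SSA4*, *CTT1* and *DDR2*, all of which also held the STRE. A match to these letters is a description of the sequence and does not show that a factor binds there.

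The stretches of 30 bases around these matches are shown for genes whose values differed between strains, and for *HSP42* and *HSP12* as the small heat shock genes with the longer heat shock element and with the most STREs. Not every match is shown. *HSP82* and *SSA4* also held 2 and 3 STREs, and *CTT1* and *DDR2* each held 1 element of 2 units. The letters in capitals are the matched element, and all are written 5′ to 3′ on the strand of the gene, from the RefSeq R64 assembly.
HSP104, heat shock elements, chrXII:88318-88347: tttTTCCAGAATTTTCTAGAAgggttatta
HSP42, heat shock elements, chrIV:806375-806404: aagTTCTGGAAGGTTCGCGAAttgagaact
HSP82, element of 2 units, chrXVI:98674-98703, minus strand: ctgtattagagTTCAAGAAatcatacctga
SSA4, element of 2 units, chrV:364325-364354: aatgaagtacaTTCTAGAAgttcctagaac
HSP104, STRE, chrXII:88439-88468: agtaaaaggcaaAGGGGcgcaaacttatgc
CTT1, STRE, chrVII:654489-654518: catttatcgtatCCCCTactgctacacgta
DDR2, STRE, chrXV:231913-231942, minus strand: tgtcttttctcaCCCCTtatgggacatcaa
HSP12, STRE, chrVI:107054-107083: gttccggtcgtcCCCCTcttgatctgaaag
The capitals before *HSP104* and *HSP42* each hold 2 overlapping matches to the form of 3 units, that is a run of alternating units, while those before *HSP82* and *SSA4* hold the form of 2 units once. Each stretch was taken around the match of its kind nearest the start codon. *HSP82* held another element of 2 units at positions -235 to -228 from its start codon.

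**Figure D1:**
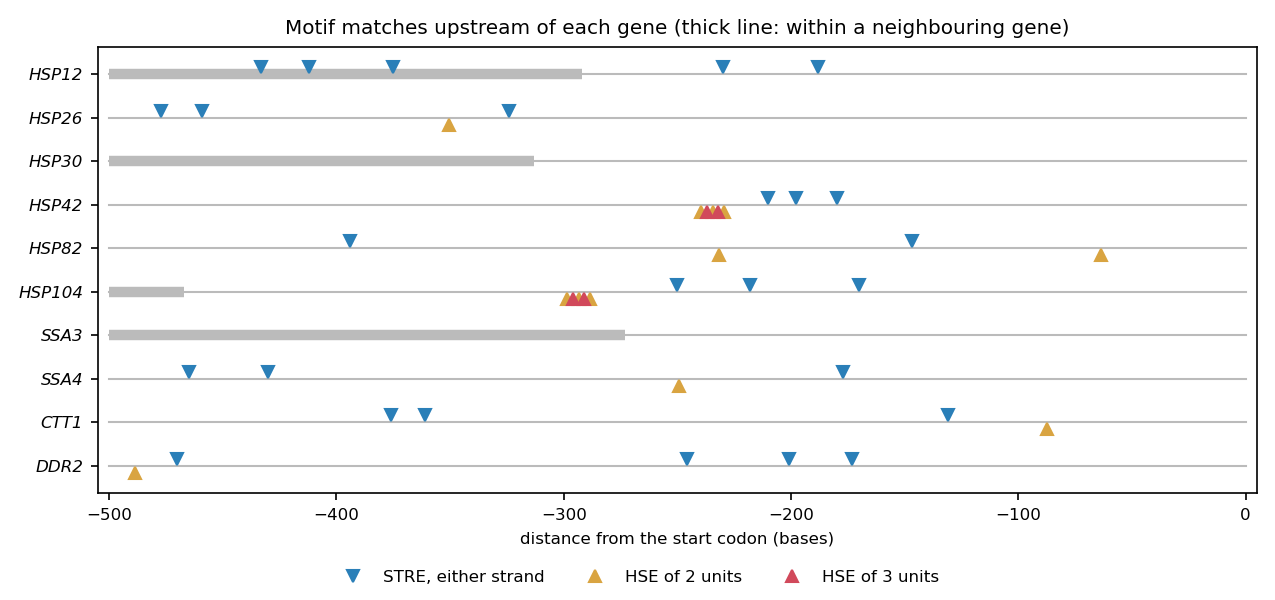
Matches to the STRE (blue) and to heat shock elements of 2 (yellow) and 3 units (red) in the 500 bases before the start codon of each gene, by distance from the start codon in bases, with thick grey lines where a neighbouring gene lies. Both elements lie close together before HSP42 and HSP104, HSP12 and DDR2 hold the most STREs (5 and 4), and HSP30 and SSA3 hold no match of either kind.

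None of the 10 coding sequences has an intron or overlaps another annotated gene. *HSP82* has a near-identical copy, *HSC82*, with 92.4% of aligned coding bases the same, and 93.6% of the 50-base windows of *HSP82* occur once in the genome. Reads from the shared stretches are not unique and would be missing or split, so *HSP82* values are less certain than those of the other genes, whose 50-base windows all occur once. *SSA3* and *SSA4* share 77.5% of aligned bases.

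At 5 h in SPO media most of these genes were among those with the most reads counted over total and polysomal libraries. Multiply aligned reads were not counted, so genes with near-identical copies rank too low, and the ranks are not scaled by gene length. By the median CPM over the 18 libraries *HSP26* ranked 3rd of the 5891 tested genes, *SSA3* 5th, *HSP12* 8th, *HSP104* 23rd, *HSP82* 32nd, *DDR2* 40th and *HSP42* 71st. *SSA4*, *CTT1* and *HSP30* followed at ranks 288, 296 and 538. Set per kilobase of coding length, the median level was 25168 CPM per kb for *HSP12*, 20835 for *HSP26*, 12959 for *DDR2* and 5968 for *SSA3*. *HSP82*, *HSP104* and *HSP42* had close medians of 1395, 1392 and 1361 CPM per kb, and their ranges over the 18 libraries overlap. Those ranges pool strains and fractions, and levels per kb within a set were not compared. By set mean, *HSP82* was highest in WT total RNA and *HSP104* in *ime4-cat* total RNA. *HSP30*, *CTT1* and *SSA4* were lowest, at 311, 296 and 265 CPM per kb, and their ranges over libraries overlap too. The Hsp70 genes thus differed widely in level, with *SSA3* at 4676 to 6837 CPM per kb and *SSA4* at 177 to 359.

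Across the 18 libraries the spread of *HSP30* was the widest of the 10, with its highest library 4.44 times its lowest, while *SSA3* (1.46 times) and *HSP26* (1.48 times) varied least. The lowest count behind any value was 159, for *HSP30*.

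**Figure D2:**
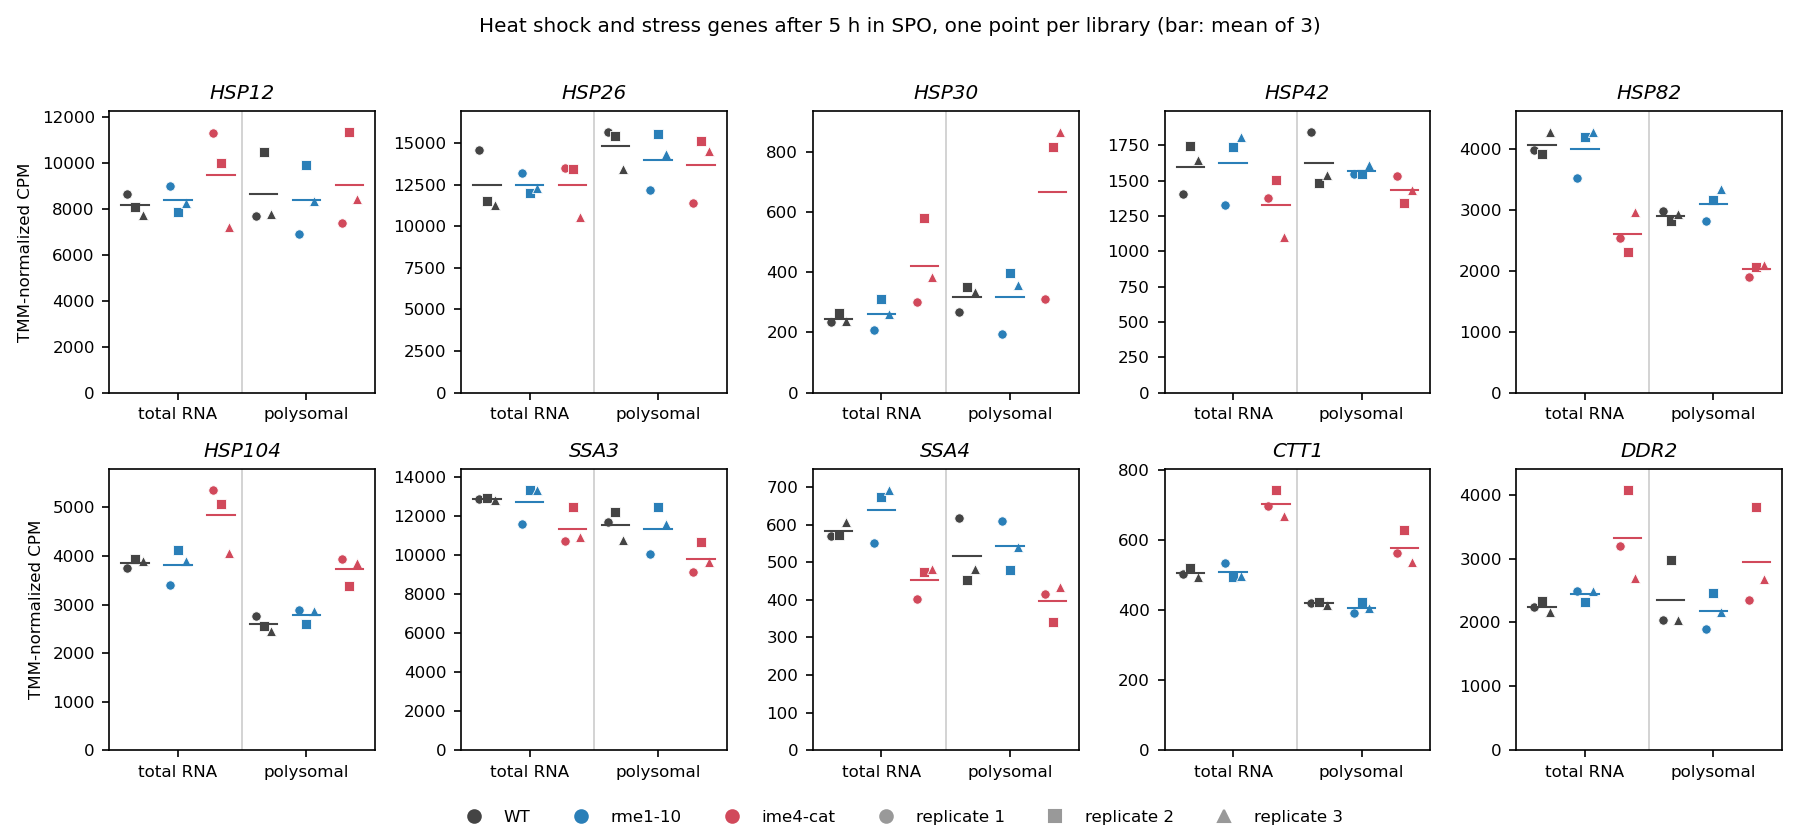
TMM-normalized CPM of each gene in each of the 18 libraries (points, shaped by replicate number and coloured by strain), with total RNA on the left of each panel and polysomal RNA on the right, bars for the mean of 3 libraries, and axes from 0. The ime4-cat libraries lie below those of WT for HSP82, SSA3 and SSA4 and above them for CTT1 and HSP104 in both fractions, while rme1-10 and WT overlap throughout.

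The polysomal RNA of *ime4-cat* and WT cells was compared to ask which mRNAs under translation change when the m6A methyltransferase is inactive. The 10 genes split. *HSP30*, *HSP104* and *CTT1* rose, *HSP82* fell, and the other 6 did not pass the test. This is 4 of 10 called where 17.7% of the 5493 genes tested were called (8.28% higher and 9.38% lower), by edgeR's quasi-likelihood test with an adjusted p under 0.05. The median log2 fold change of the 10 was -0.04, beside -0.01 over all genes tested, and 5 of the 10 had libraries that did not overlap between the strains, beside 32.6% of all genes. With 3 libraries against 3, an exact two-sided permutation test cannot give a p below 0.1.

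*HSP30*, the regulator of the proton pump, moved most. Its libraries stood at 269, 352 and 332 CPM in WT replicates 1, 2 and 3 and at 311, 817 and 865 CPM in those of *ime4-cat*. The sets overlap, because *ime4-cat* replicate 1 lies among the WT libraries while the other *ime4-cat* libraries are far above them. The log2 fold change was 1.04 (SE 0.25, adjusted p = 0.0060), a 2.06-fold higher level with a 95% interval of 1.44 to 2.95. The call depended on single libraries and on the tool. Without *ime4-cat* replicate 3 it was 0.81 (adjusted p = 0.079), and DESeq2's Wald test on all 6 gave an adjusted p of 0.0998.

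*HSP104*, the disaggregase, stood at 2773, 2562 and 2464 CPM in WT and at 3940, 3378 and 3850 CPM in *ime4-cat* polysomes. Every *ime4-cat* library was above every WT library, with a log2 fold change of 0.50 (SE 0.15, adjusted p = 0.023). *CTT1*, catalase T, stood at 421, 423 and 415 CPM in WT and at 563, 630 and 539 CPM in *ime4-cat*. These sets do not overlap either, and the log2 fold change was 0.44 (SE 0.14, adjusted p = 0.028). The *CTT1* call was lost in 6 of 15 alternative fits (adjusted p up to 0.12), which are those without *ime4-cat* replicate 2 or 3, without WT replicate 1, 2 or 3, or without composition factors. The *HSP104* call was lost in 4 of 15, those without WT replicate 2 or 3 or without *ime4-cat* replicate 1 or 3 (adjusted p up to 0.12).

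*HSP82*, the Hsp90 gene, moved the other way. It stood at 2975, 2819 and 2927 CPM in WT and at 1905, 2067 and 2103 CPM in *ime4-cat* polysomes, a log2 fold change of -0.54 (SE 0.14, adjusted p = 0.013) and 0.69 times the WT level with a 95% interval of 0.56 to 0.85. All 3 *ime4-cat* libraries were below all 3 of WT. The Hsp70 genes lay below WT without passing the test. *SSA4* stood at 616, 452 and 482 CPM in WT and 415, 341 and 434 CPM in *ime4-cat* (log2 fold change -0.40, SE 0.16, adjusted p = 0.086), and *SSA3* at 11706, 12195 and 10769 CPM against 9118, 10678 and 9651 CPM (-0.25, SE 0.16, adjusted p = 0.32). Neither set of Hsp70 values overlaps between the strains.

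The small heat shock genes did not pass the test: log2 fold changes were 0.05 for *HSP12* (SE 0.19), -0.13 for *HSP26* (SE 0.17) and -0.19 for *HSP42* (SE 0.15), with adjusted p of 0.89, 0.66 and 0.42. The 95% interval for *HSP12* ran from 0.79 to 1.35 times the WT level and that for *HSP26* from 0.71 to 1.17 times. *DDR2* stood at 2033, 2982 and 2043 CPM in WT and 2355, 3804 and 2680 CPM in *ime4-cat*, with replicate 2 the highest in both strains (log2 fold change 0.31, SE 0.19, adjusted p = 0.28). Leaving out each library in turn left 0 to 3 of the 4 calls, with 0 without *ime4-cat* replicate 3, 1 (*HSP30*) without WT replicate 3 and 2 (*HSP30* and *HSP82*) without WT replicate 2, while the direction of all 4 was kept in every such fit.

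**Figure D3:**
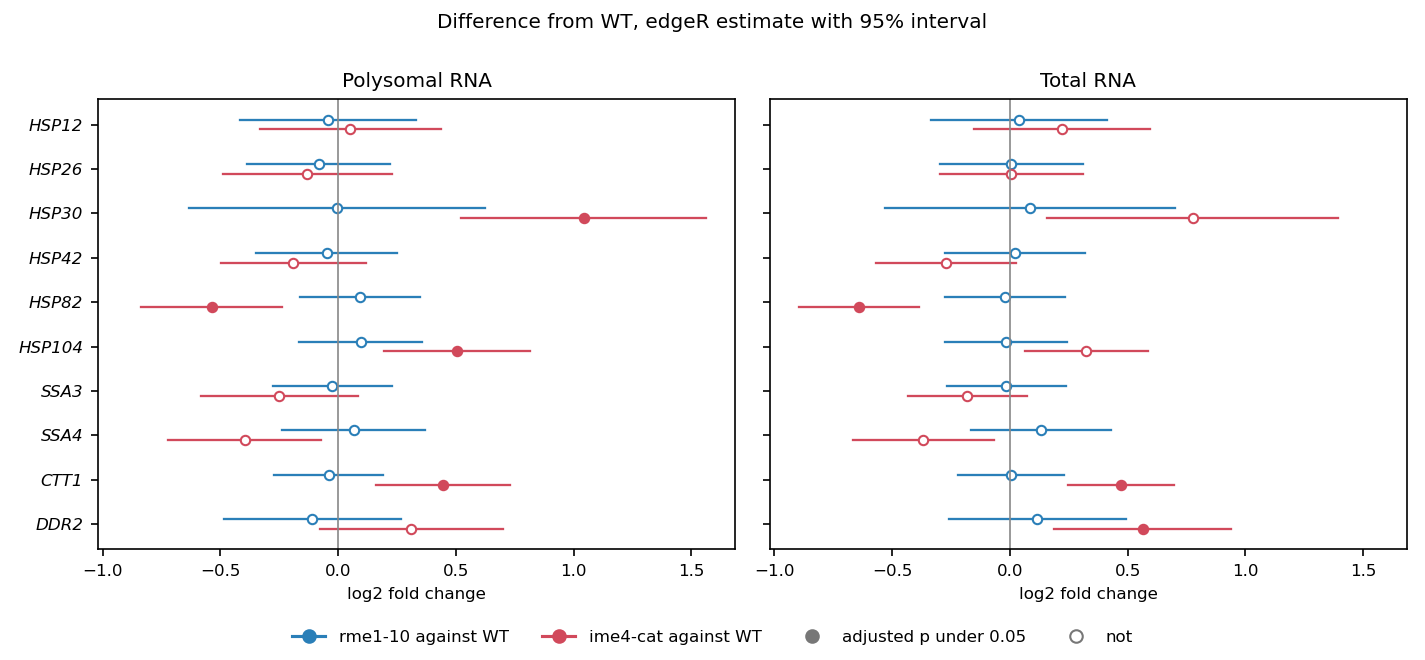
Log2 fold change from WT (points) with its 95% interval (lines) for each gene in polysomal RNA (left) and total RNA (right), in ime4-cat (red) and rme1-10 (blue), with filled points for an adjusted p under 0.05. HSP30, HSP104 and CTT1 lie above 0 and HSP82 below it in ime4-cat in both fractions, and the values of rme1-10 lie between -0.11 and 0.13.

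Total RNA of *ime4-cat* and WT cells gave the same direction for those 4 genes, in libraries named by their tables. As total RNA came from the lysates before the gradient, this is not an independent repeat. *HSP82* fell, *CTT1* and *DDR2* rose, and the other 7 did not pass the test, so that 3 of 10 were called beside 14.7% of 5891 genes (7.55% higher and 7.18% lower). The median log2 fold change of the 10 was 0.11, beside 0.01 over all genes, and 7 of the 10 did not overlap between the strains, beside 27.5% of all genes.

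*HSP82* stood at 3991, 3922 and 4273 CPM in WT total RNA and at 2539, 2309 and 2967 CPM in *ime4-cat*. Every *ime4-cat* library was lower, with a log2 fold change of -0.64 (SE 0.12, adjusted p = 0.0017), and *HSP82* passed the test in every alternative fit of this comparison (adjusted p of at most 0.049). *CTT1* stood at 505, 520 and 496 CPM in WT and at 698, 744 and 669 CPM in *ime4-cat* total RNA, a log2 fold change of 0.47 (SE 0.11, adjusted p = 0.0061). Fitted on the compared sets only, the *CTT1* call was lost, with an adjusted p of 0.074 and, blocked by replicate, of 0.052. Its WT libraries lay close together, and every *ime4-cat* library was above them. *DDR2* stood at 2246, 2342 and 2158 CPM in WT and at 3204, 4073 and 2701 CPM in *ime4-cat* (0.56, SE 0.18, adjusted p = 0.039). The *DDR2* call was lost in 7 of 16 alternative fits. These were the fits without WT replicate 1, 2 or 3 or without *ime4-cat* replicate 1 or 2 (adjusted p of 0.054 to 0.19), limma-trend, and the fit on the compared sets only.

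*HSP30* stood at 234, 263 and 236 CPM in WT total RNA and at 299.5, 578 and 382 CPM in *ime4-cat*, and although no library overlaps, the log2 fold change of 0.78 (SE 0.30) had an adjusted p of 0.083. Same-numbered libraries of these sets deviated together, and once the fit was blocked by replicate *HSP30* passed the test (adjusted p = 0.010). *HSP104* stood at 3744, 3938 and 3893 CPM in WT and 5356, 5074 and 4067 CPM in *ime4-cat* (0.32, SE 0.13, adjusted p = 0.085). *SSA4* stood at 569, 573 and 608 CPM in WT and 402, 474 and 482 CPM in *ime4-cat* (-0.37, SE 0.14, adjusted p = 0.090). Values for *SSA3* (-0.18, adjusted p = 0.35), *HSP42* (-0.27, adjusted p = 0.22), *HSP12* (0.22, adjusted p = 0.46) and *HSP26* (0.01, adjusted p = 0.99) were smaller. The 95% interval for *HSP26* ran from 0.81 to 1.24 times the WT level.

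Expression of the early meiotic program also differed between *ime4-cat* and WT. The early meiotic markers (*IME2*, *HOP1*, *ZIP1*, *SPO11*, *DMC1*, *REC8*, *MEK1*, *RED1*, *SPO13*, *HOP2*, *REC104* and *SPO1*) were lower in *ime4-cat* for 12 of 12 genes in both fractions, with a median log2 fold change of -1.82 in polysomal and -1.41 in total RNA, and none was at 0 in any library. Their summed level was 4369 to 4797 CPM in WT and 1393 to 1539 CPM in *ime4-cat* polysomes, where replicate 3 (1430 CPM) lay between the others. In total RNA it was 5282 to 5673 CPM in WT, but 1572, 1668 and 3379 CPM in *ime4-cat* replicates 1, 2 and 3, so that replicate 3 stood apart. That library also had the lowest *ime4-cat* value of *HSP12*, *HSP26*, *HSP42*, *HSP104*, *CTT1* and *DDR2* and the highest of *HSP82*. It was not nearer WT for all of them. For *HSP12*, *HSP26* and *HSP42* it stood at 7216, 10594 and 1103 CPM, below the lowest WT total libraries (7758, 11302 and 1407 CPM). Without it 4 of the 10 genes were called in total RNA, with *HSP104* added (log2 fold change 0.43, adjusted p = 0.014). The part of meiotic progress in the stress gene differences was not tested, and in bulk RNA fewer cells with an mRNA and less of it per cell cannot be told apart.

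Further genes of both pathways were described as lists, which were drawn up with earlier results of these data known. Of 22 Hsf1-dependent chaperone genes, 0 rose and 4 fell in *ime4-cat* polysomes, where 9.38% of all genes were called lower, and the median log2 fold change was -0.11. Those that fell were *CPR6* (-0.72, adjusted p = 0.00090) and *YDJ1* (-0.57, adjusted p = 0.013), an Hsp90 cochaperone and an Hsp40 chaperone, with *HSC82* (-0.47, adjusted p = 0.038), the other Hsp90 gene, and *HSP60* (-0.44, adjusted p = 0.031), the mitochondrial chaperonin. In total RNA, where 7.18% of all genes were called lower, 0 rose and 4 fell (median -0.12): *MDJ1* (-0.60), the mitochondrial Hsp40, *SSA2* (-0.54), a constitutive Hsp70, *CPR6* (-0.52) and *YDJ1* (-0.41), with adjusted p from 0.0059 to 0.035.

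Of 32 Msn2/4-dependent genes, 31 were tested in polysomal RNA, where 5 rose beside 8.28% of all genes, 0 fell and the median was 0.28, with 27 values above 0. In total RNA 6 rose beside 7.55% of all genes and 0 fell, the median was 0.28, and 29 of 32 values were above 0. *TSL1*, a subunit of trehalose synthase, rose by a log2 fold change of 0.94 in polysomal RNA (adjusted p = 8.1e-05) and 0.98 in total RNA (adjusted p = 0.00019). *SPI1*, a cell wall protein gene, rose by 0.71 and 1.20 (adjusted p = 0.037 and 0.0018), and *GPH1*, glycogen phosphorylase, by 0.47 and 0.59 (adjusted p = 0.023 and 0.0044). *GAD1*, glutamate decarboxylase, rose by 0.45 and 0.48 (adjusted p = 0.046 and 0.028), and *HSP31* by 0.62 in total RNA (adjusted p = 0.027). All-gene medians in these comparisons were -0.01 and 0.01.

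Of 16 stress regulator genes 1 rose and 0 fell in either fraction, a share near that of all genes called higher (8.28% and 7.55%), and that was *WHI2* (0.46 in both, adjusted p = 0.032 and 0.013), a phosphatase activator of the general stress response. *HSF1*, *MSN2* and *MSN4* had log2 fold changes of -0.01, 0.08 and 0.08 in polysomal RNA (SE 0.14, 0.17 and 0.21) and 0.0048, -0.07 and 0.07 in total RNA (SE 0.12, 0.14 and 0.16). In the upstream windows a STRE was found for 31 of the 32 Msn2/4 genes and 7 of the 22 Hsf1 genes, and a heat shock element of 3 units for 2 and 13 of them.

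Counts for the lists moved with the settings more than their medians did. In polysomal RNA, leaving out each library left 1 to 4 Msn2/4 genes that rose and 1 to 5 Hsf1 genes that fell, while the medians stayed at 0.21 to 0.34 and -0.14 to -0.07. Other settings gave 3 to 17 and 4 to 7 there. In total RNA the counts were 3 to 9 and 1 to 6 with a library left out and 2 to 9 and 0 to 6 under other settings, and the medians kept their signs.

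**Figure D4:**
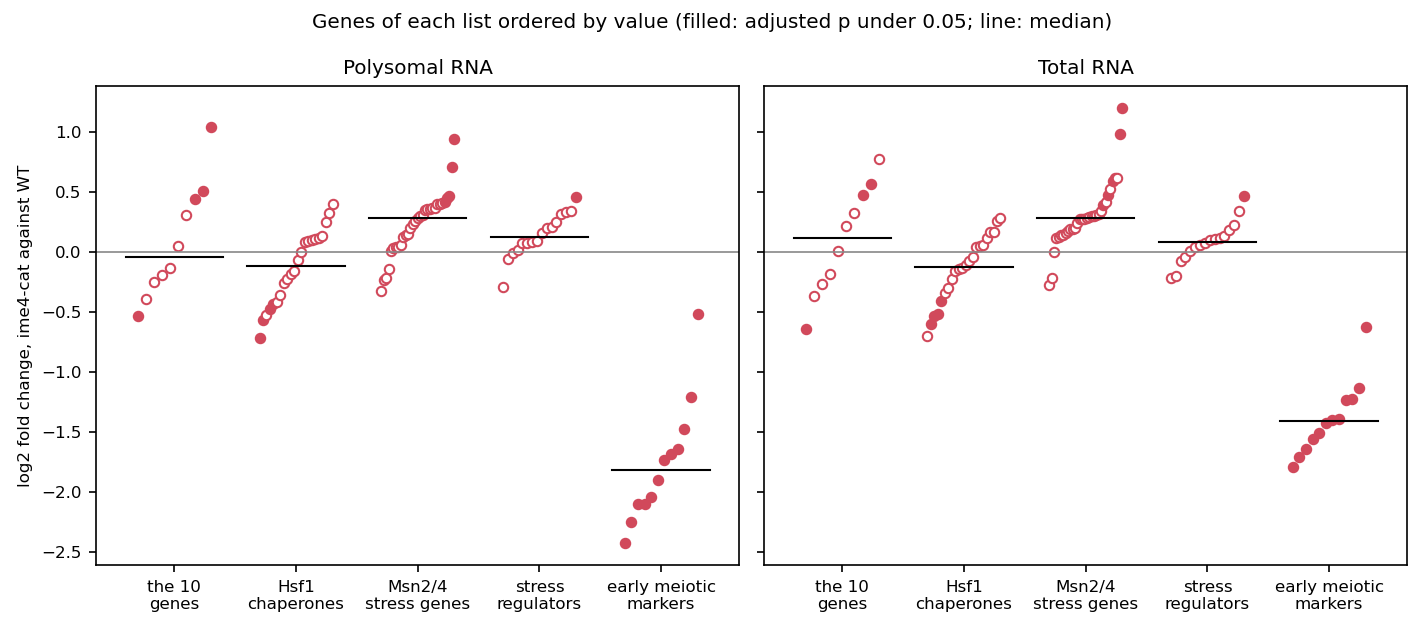
Log2 fold change of ime4-cat against WT for the 10 genes and for the genes of each further list, ordered by value within a list, in polysomal RNA (left) and total RNA (right), with filled points for an adjusted p under 0.05 and a line at the median. Called Hsf1 chaperone genes lie below 0 (4 in each fraction), called Msn2/4 genes above it (5 and 6), and all 12 early meiotic markers below it.

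The *rme1-10* strain was compared with WT to ask what loss of the methylated adenosine in *RME1* does where *IME4* is intact. No difference in the stress genes was detected. In total RNA the log2 fold changes of the 10 ranged from -0.02 to 0.13 and in polysomal RNA from -0.11 to 0.10, 0 of 10 genes passed the test in either fraction, and the libraries of all 10 overlapped with those of WT, where 9.17% of genes in total and 8.95% in polysomal RNA did not. No gene of the 5891 was called in either (percent called 0), with 77 genes in total and 128 in polysomal RNA at an unadjusted p under 0.05, none of them among the 10. DESeq2 called 0 genes too (54 and 105 at an unadjusted p under 0.05), as did limma-trend (57 and 173). In a fit on the compared sets alone, blocked by replicate, 84 genes were higher and 39 lower in total RNA and 43 and 60 in polysomal RNA, with 0 of the 10 among them.

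Other than for *HSP30*, whose intervals were wider, the 95% intervals of the 10 genes lay between 0.79 and 1.41 times the WT level in total RNA and between 0.71 and 1.29 times in polysomal RNA. *HSP82*, for instance, stood at 3523, 4191 and 4280 CPM in *rme1-10* total RNA, around the WT values, and *CTT1* at 536, 496 and 497 CPM. A change of the size seen for *HSP82* in *ime4-cat* total RNA (0.64 times) lies outside those intervals. *RME1* itself had a log2 fold change of 0.53 in total RNA and 0.59 in polysomal RNA (unadjusted p = 0.0026 and 0.0019 by edgeR, adjusted p of 1.00 for both), and 1.05 and 1.02 in *ime4-cat* (adjusted p = 0.00019 and 0.00014). Early meiotic markers summed to 4516 to 5049 CPM in *rme1-10* total RNA and 4048 to 4419 CPM in polysomal RNA. In total RNA every *rme1-10* library lay below every WT library (5282 to 5673 CPM), while in polysomal RNA the sets overlapped, and 0 of the 12 markers passed the test in either. Mid-sporulation markers (*NDT80*, *SPS1*, *SPS2*, *SPS4*, *SMK1*, *CLB1*, *SSP1* and *SPR3*) went the other way. Their low summed level was 199 to 233 CPM in *rme1-10* and 157 to 181 CPM in WT total RNA. In polysomal RNA these sums overlapped, at 174 to 250 and 135 to 191 CPM, and 0 of 8 passed the test in either fraction.

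The *ime4-cat* libraries were also set against those of *rme1-10*, and this comparison shares the *ime4-cat* libraries with the one above. In total RNA *HSP82* (-0.62, SE 0.12, adjusted p = 0.0029) and *SSA4* (-0.50, SE 0.14, adjusted p = 0.029) were lower and *CTT1* was higher (0.47, SE 0.11, adjusted p = 0.0081), which is 3 of 10 beside 10.2% of genes (4.70% higher and 5.48% lower). *SSA4*, the Hsp70 gene that missed the threshold against WT, stood at 551, 674 and 692 CPM in *rme1-10* total RNA, all above the 402 to 482 CPM of *ime4-cat*. *HSP30* (0.69, adjusted p = 0.14), *HSP104* (0.34, adjusted p = 0.083) and *DDR2* (0.45, adjusted p = 0.12) did not pass, but did once the fit was blocked by replicate (adjusted p = 0.021, 0.047 and 0.037). Fitted on the compared sets only, 0 of the 10 were called with or without that block: the blocked adjusted p was 0.066 for *HSP82*, 0.072 for *SSA4* and 0.087 for *CTT1*, with unchanged directions. The sets did not overlap for 4 of the 10 (*HSP82*, *SSA4*, *CTT1* and *DDR2*), beside 24.6% of genes. Without *rme1-10* total replicate 3, the deepest library, only *HSP82* was called, and without *ime4-cat* replicate 3 there were 5 calls.

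In polysomal RNA *HSP30* (1.06, SE 0.30, adjusted p = 0.029), *HSP104* (0.42, SE 0.13, adjusted p = 0.036) and *CTT1* (0.50, SE 0.11, adjusted p = 0.0062) were higher than in *rme1-10* and *HSP82* was lower (-0.62, SE 0.12, adjusted p = 0.0031), 4 of 10 beside 9.54% of genes (4.45% higher and 5.09% lower). The sets did not overlap for 5 of the 10 (*HSP42*, *HSP82*, *HSP104*, *SSA4* and *CTT1*), beside 28.1% of genes. *SSA4* (-0.45, adjusted p = 0.063) and *DDR2* (0.43, adjusted p = 0.15) passed in the blocked fit (adjusted p = 0.039 and 0.046). The *HSP30* call was lost when any of 4 libraries was left out. The *HSP104* call was lost in 9 of 16 alternative fits, 5 of them with a library left out and the rest under other settings. With single libraries left out, 2 calls were left without *ime4-cat* replicate 3 or without *rme1-10* replicate 1 or 3. The other 4 genes lay between -0.29 and 0.18 in total and between -0.21 and 0.11 in polysomal RNA, with an adjusted p of at least 0.21.

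Polysomal RNA was set against total RNA of the same strain to ask which mRNAs were higher or lower in polysomes relative to the other mRNAs. Each library was normalized for depth and composition, so a shift of all mRNAs into or out of polysomes would not show. *HSP104* and *HSP82* were lower in polysomal RNA. In WT cells *HSP104* stood at 3744 to 3938 CPM in total RNA and 2464 to 2773 CPM in polysomal RNA (log2 fold change -0.57, SE 0.13, adjusted p = 0.0076), and *HSP82* at 3922 to 4273 CPM and 2819 to 2975 CPM (-0.48, SE 0.12, adjusted p = 0.018). These are 2 of 10 beside 10.4% of 5891 genes (5.16% higher and 5.26% lower), both with no overlap between the fractions, and the *HSP82* call was lost without WT polysome replicate 2 or 3 or WT total replicate 3 (adjusted p of 0.054 to 0.088).

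In *rme1-10* cells *HSP104* was again lower in polysomal RNA (-0.45, SE 0.13, adjusted p = 0.041), which is 1 of 10 beside 4.52% of genes (2.05% higher and 2.46% lower), and *HSP82* had -0.37 (adjusted p = 0.088). The *HSP104* call there was lost in 8 of 16 alternative fits, 5 of them with a library left out and the rest under other settings. In *ime4-cat* cells 0 of 10 passed, beside 7.57% of genes (3.23% higher and 4.35% lower), with *HSP104* at -0.38 (adjusted p = 0.069) and *HSP82* at -0.36 (adjusted p = 0.075). At an unadjusted p under 0.05 edgeR gave 4 of the 10 in *ime4-cat* cells, DESeq2 called 3 (*HSP82*, *HSP104* and *CTT1*) and limma-trend called 0. *CTT1* lay between -0.27 and -0.32 in the 3 strains, with no overlap between fractions in any and adjusted p of 0.093 to 0.11. *HSP30* was the gene with the highest values, at 0.37, 0.28 and 0.65 in WT, *rme1-10* and *ime4-cat* (adjusted p of 0.18 to 0.64). The other 6 genes lay between -0.24 and 0.25. Fractions did not overlap for 5 of the 10 genes in WT, 4 in *ime4-cat* and 3 in *rme1-10*, beside 37.6%, 20.6% and 31.3% of all genes.

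**Figure D5:**
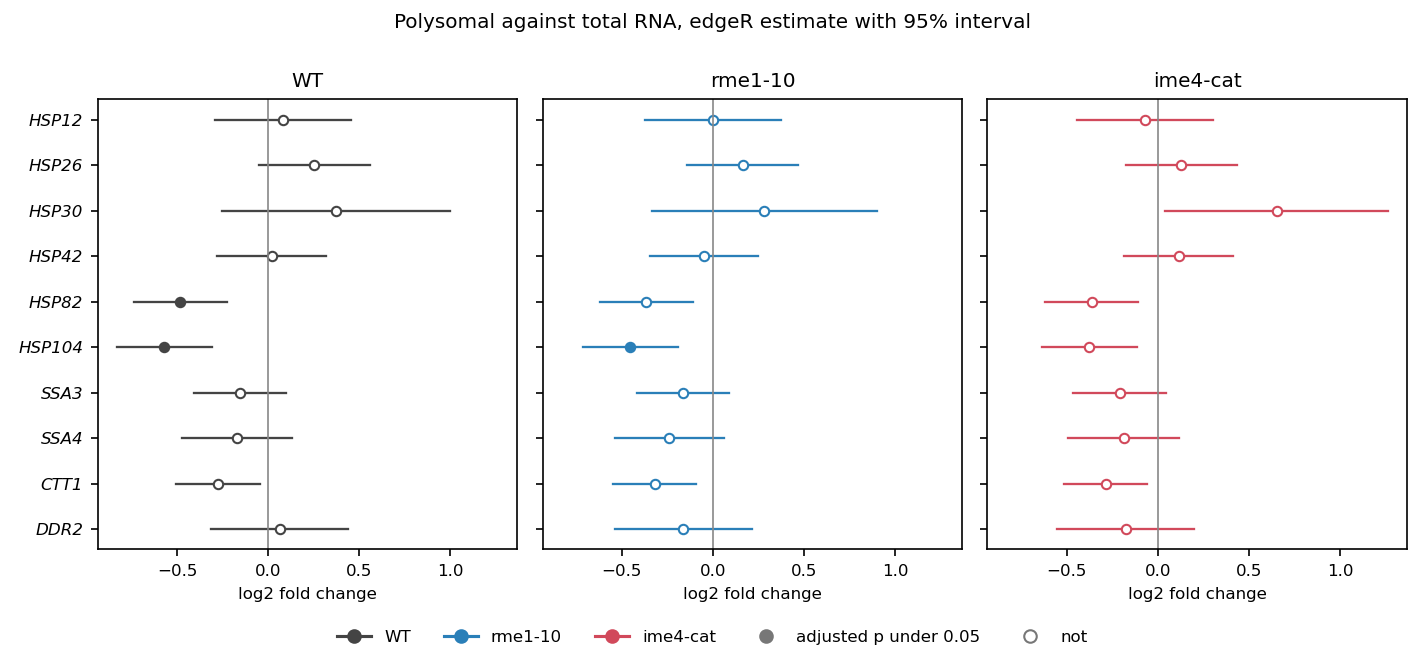
Log2 fold change of polysomal against total RNA (points) with its 95% interval (lines) for each gene in WT (left), rme1-10 (middle) and ime4-cat cells (right), with filled points for an adjusted p under 0.05. HSP82, HSP104 and CTT1 lie below 0 in all 3 strains, and the calls are HSP82 and HSP104 in WT and HSP104 in rme1-10.

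Whether this relative polysomal level of an mRNA, against its total level, differed between strains was tested as an interaction of strain and fraction. No gene was called for *ime4-cat* against WT or for *rme1-10* against WT (212 and 55 of 5891 genes at an unadjusted p under 0.05 by edgeR, 177 and 27 by DESeq2, 239 and 52 by limma-trend, with 0 called by each), and none of the 10 reached an unadjusted p of 0.05 by edgeR. The interaction estimates of the 10 lay between -0.24 and 0.28 for *ime4-cat* and between -0.23 and 0.12 for *rme1-10*. The 95% intervals of *HSP30* were the widest, from -0.59 to 1.15 and from -0.97 to 0.79 on the log2 scale. Those of the other 9 genes lay between -0.77 and 0.56 for *ime4-cat* and between -0.76 and 0.48 for *rme1-10*, and were narrowest for *CTT1* (-0.34 to 0.31 and -0.37 to 0.28).

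Among themselves the 10 genes did not vary as a single group over the 18 libraries. Of the 45 pairs, 9 had a Pearson r over 0.5 and 5 had one under -0.5, as a description across libraries that share strain and fraction. *CTT1* went with *HSP104* (r = 0.85) and with *DDR2* (0.77), and *HSP12* with *DDR2* (0.78). *HSP82* went with *SSA4* (0.83) and *SSA3* (0.81), and *HSP30* against *SSA4* (-0.68) and *HSP82* (-0.65). Replicate numbers left a mark as well. Polysomal replicate 2 was the highest of 3 in all 3 strains for *HSP12*, *SSA3*, *CTT1* and *DDR2*, and polysomal replicate 1 for *HSP104*. In total RNA the highest in all 3 strains was replicate 1 for *HSP12* and *HSP26*, replicate 2 for *HSP30* and *SSA3*, and replicate 3 for *HSP82* and *SSA4*. How often all genes do so was not counted. The genes outside the 10 whose log2 CPM followed their mean standardized profile most closely over the 18 libraries were YJR018W (r = 0.87), *CCP1* (0.84), *UGA1* (0.82), YCL049C (0.82) and *IRC16* (0.81).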

How the data were processed

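Poly(A)+ RNA-seq of 18 libraries was analysed, while the m6A-seq samples (12) were not used here. The deposited tables hold raw read counts per gene as the authors made them, with 7126 genes each. The submitters' processing notes name TopHat2 and sacCer3, and the counter and its strand setting are not given in the sources used here. The labels name an Illumina TruSeq kit and the methods a NEBNext Ultra kit. Closing entries of the tables were left out of library sizes: multiply aligned reads took 57.5% to 94.3% of entries per library, reads on no gene 3.22% to 23.5% and ambiguous reads 0.0132% to 0.0703%. Depth on genes was 586141 to 6009889 counts, and replicates differed by more than sampling noise (chi-square per degree of freedom 1.58 to 22.0). Set medians of multiply aligned reads were 86.9% to 88.5% in polysomal and 66.4% to 72.5% in total RNA. Set medians of depth were 588503 to 1047377 and 1592441 to 1982079 counts. Comparisons of the fractions thus differ in both, and the part this plays was not tested.

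Counts were fitted with edgeR 4.0.16 (TMM factors, filterByExpr, quasi-likelihood test, Benjamini-Hochberg adjustment over all genes tested, threshold 0.05) in R 4.3.3. The polysomal comparison of *ime4-cat* with WT used the 6 libraries whose titles and table names agree, and all others 1 fit of 6 sets, whose shared spread covers all 18 libraries. CPM are TMM-normalized over the 18. DESeq2 1.42.0 and limma 3.58.1 (trend) were alternatives, with other scalings, filters, sample subsets and replicate blocks and with each library left out. The fits were tested on simulated data with no replicate effect, the same spread in every set and planted changes larger than most called here. That test therefore does not check calls where replicates pair, sets differ in spread or changes are small. The 10 genes were all described. In each other list and comparison, at most 4 called genes with the largest changes were named, *RME1* was given as a check of the labels, and the genes most alike were the 5 with the highest correlation to the mean standardized profile. *HSF1*, *MSN2*, *MSN4* and *GAD1* in total RNA fall outside this rule and were named after their values were seen. *IME4* was also planned as a label check. In *ime4-cat* against WT its log2 fold change was -0.79 in total and -0.51 in polysomal RNA (edgeR adjusted p = 0.0080 and 0.058). The paper reports the same protein level for both forms of Ime4p. The genes and the lists were chosen with earlier results of these data known.

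Same-numbered libraries were checked for shared deviations over 3538 genes with a mean above 50 CPM. Every pair correlated above 0.1 in total RNA of *ime4-cat* and WT (0.21 to 0.41), of *rme1-10* and WT (0.40 to 0.61) and of *ime4-cat* and *rme1-10* (0.20 to 0.48), and in polysomal RNA of *rme1-10* and WT (0.13 to 0.56) and of *ime4-cat* and *rme1-10* (0.21 to 0.57). These sets were treated as paired only in the alternative fits blocked by replicate. The main fits had no replicate term, so their SEs, intervals and adjusted p do not use the pairing. Upstream windows of 500 bases came from the RefSeq R64 genome, the same build as sacCer3, and their length was set after the tables had been opened.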

Additional observations from a re-analysis of the deposited data

How the results depend on the processing

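Directions held better than calls. In *ime4-cat* against WT, *HSP82* stayed lower and *CTT1*, *HSP104* and *HSP30* higher in both fractions under every alternative, whereas the number of the 10 genes called moved. The uncalled *HSP26* difference in total RNA turned negative under DESeq2 size factors (-0.0016), no composition factors (-0.10), upper quartile factors (-0.032), a minimum of 10 counts in every library (-0.0065), DESeq2 (-0.0015), a fit on the compared sets only (-0.0018) and that fit with the replicate block (-0.0020), and it ran from -0.065 to 0.14 with single libraries left out. The uncalled *HSP12* difference in polysomes was -0.0090 without composition factors and ran from -0.13 to 0.21.

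The replicate block gave 6 called genes of the 10 in total RNA of *ime4-cat* against *rme1-10* (all genes: 428 higher) and 7 in polysomes of *ime4-cat* against WT (805 higher, 800 lower), where the numbers did not pair every library (same-number correlations 0.082 to 0.50). For polysomal against total RNA (-0.23 to 0.22) it gave 469 higher in WT, 3 of the 10 and 307 higher in *ime4-cat*, and 3 of the 10, 252 higher and 251 lower in *rme1-10*. A block nested in strain gave 0 of the 10 in *rme1-10*. The replicate block on the compared sets only, chosen after seeing the data, gave 193 higher and 169 lower in total RNA of *ime4-cat* against WT, with *HSP30* called and *CTT1* not (adjusted p = 0.046 and 0.052 by edgeR). It gave 84 and 39 in total and 43 and 60 in polysomal RNA of *rme1-10* against WT. Against *rme1-10*, *ime4-cat* then had 0 of the 10 with 12 higher and 3 lower in total RNA, and 7 of the 10 with 799 and 734 in polysomal RNA.

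Fitted on the compared sets only, without a block, *ime4-cat* against WT in total RNA kept 1 of the 10 (70 higher, 62 lower) and against *rme1-10* 0 (10 and 7). That fit gave 2 genes higher in *rme1-10* polysomes against WT, and for polysomal against total RNA 721 and 662 in WT, 0 and 4 in *ime4-cat* and 240 and 273 in *rme1-10*. It has fewer samples to estimate the spread. For polysomal against total RNA, calls still rose with it, from 304 and 310 in WT and from 121 and 145 in *rme1-10*. They fell wherever *ime4-cat* total libraries were compared. The chi-square measure of replicate differences was 8.36, 22.0 and 15.6 for pairs of that set and 1.58 to 8.69 for pairs of the others. Whether the shared spread of the main fit is too small for *ime4-cat* total RNA, and its p-values too low, was not tested.

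Without composition factors, higher calls fell to 275 in total RNA of *ime4-cat* against WT and to 149 in total and 156 in polysomal RNA against *rme1-10*. The share of calls that were higher went from 51.3% to 33.2% in total and from 46.9% to 36.9% in polysomal RNA of *ime4-cat* against WT, and from 46.2% to 26.0% and from 46.6% to 30.5% against *rme1-10*. Upper quartile factors moved that share for polysomal against total RNA from 49.5% to 38.3% in WT, from 42.6% to 26.3% in *ime4-cat* and from 45.5% to 28.4% in *rme1-10*, with 2 of the 10 and 110 genes higher in *ime4-cat* and 3 of the 10 in *rme1-10*. In polysomal against total RNA, the minimum of 10 counts gave 2 of the 10 in *ime4-cat*, no filter gave 0 in *rme1-10*, DESeq2 gave 3 in *ime4-cat* and 3 in *rme1-10*, and limma-trend gave 0 in *rme1-10*. Limma-trend called 171 genes higher in total RNA of *ime4-cat* against *rme1-10*, and DESeq2 331 lower in polysomes of *ime4-cat* against WT. The cause of these moves was not tested.

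With single libraries left out, the calls among the 10 ran from 0 to 3 in polysomes of *ime4-cat* against WT (all genes: 203 to 478 higher, 307 to 488 lower). All-gene calls in total RNA of that pair ran from 157 to 649 and 199 to 634. Against *rme1-10* they ran from 1 to 5 in total (84 to 482, 116 to 534) and 2 to 3 in polysomal RNA (109 to 198, 190 to 243). For polysomal against total RNA they ran from 1 to 2 in WT (81 to 211, 104 to 205), 0 to 1 in *ime4-cat* (51 to 305, 76 to 373) and 0 to 1 in *rme1-10* (22 to 76, 24 to 93). The early meiotic markers called lower in total RNA of *ime4-cat* against WT numbered 4 to 12 over all alternatives.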
